A study of Mus musculus with 2 samples.

Results

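The genes described here encode 10 secreted proteins of antimicrobial defence and the acute-phase response: Saa3, Lcn2, Camp, Ltf, S100a8, S100a9, Lyz1, Lyz2, Slpi and Hp. They were chosen by name and not by a rule on measured values, though with earlier results of these data known. All 10 were found among the 55536 annotated genes of the tables. RNA was measured in macrophages grown in culture from the bone marrow of C57BL/6J mice, with no genetic change named in the labels and with sex and age not collected. Both libraries received lipid A, the TLR4-binding part of bacterial lipopolysaccharide, at 100 ng/ml for 12 h, then 12 h of washout, then 100 ng/ml again for 25 min. Total RNA of the nucleoplasm, a fraction that another label calls nuclear, was sequenced after removal of ribosomal RNA. These 2 libraries are biological replicates 1 and 2 of a single group, they share a donor entry, and they started from 500 ng (replicate 1) and 1 µg (replicate 2) of RNA. No unstimulated sample was analysed here, so the values below are levels and none is a response to lipid A. Nothing in the labels shows separate cultures or animals, so the spread between the replicates may be technical.

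As background, mammals defend body fluids with small secreted proteins that lyse bacteria, starve them of metals or hold tissue-damaging proteases in check. Neutrophils store many of them ready-made in granules, whereas macrophages and hepatocytes make others upon microbial or cytokine signals through NF-kB, C/EBP and STAT3 factors. Lysozyme is made constitutively by macrophages, and Lyz2 is a standard marker gene of the myeloid lineage.

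The 10 genes fell into 2 abundant genes, 1 gene of low level and 7 genes near the limit of measurement. Lyz2 and Saa3 together held 99.8% of the expected counts of the 10 genes in replicate 1 and 99.5% in replicate 2. Their counts made up 0.206% and 0.242% of the whole libraries, which totalled 20196408 and 19588980 expected counts. An expected count is an estimated number of reads, and TPM, a relative abundance that has the same sum in every library, also corrects for effective transcript length. Lyz2, Saa3 and Lcn2 reached 1 TPM in both libraries, which is 3 of 10 genes, against 44.9% of all 22015 protein-coding genes outside the mitochondrial genome. On the posterior mean TPM of the same tables, Ltf and Hp also reached 1 TPM, which made 5 of 10 genes against 48.6% of protein-coding genes. Ltf did so on 3 and 9 expected counts, and Hp on 19 and 26. On deposited TPM the other 7 had means from 0 to 0.970 TPM, and the median protein-coding gene stood at 0.540 TPM in the first library and at 0.460 TPM in the second. In bulk RNA, fewer cells expressing a gene and less RNA per cell cannot be told apart.

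**Figure D1:**
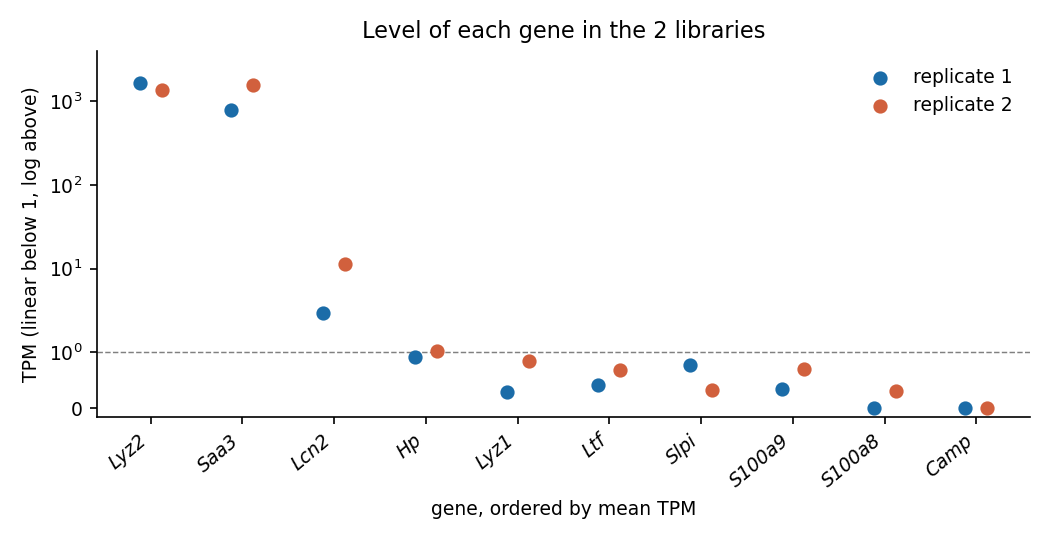
TPM of each gene (vertical axis, linear below 1 and logarithmic above it) in replicate 1 and replicate 2, with genes ordered by mean TPM and a dashed line at 1 TPM. Lyz2 and Saa3 lie between 789.76 and 1639.72 TPM, Lcn2 at 2.99 and 11.33 TPM, and the other 7 genes at 1.03 TPM or below.

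Lyz2 encodes lysozyme M, the enzyme that cuts bacterial peptidoglycan (ENSMUSG00000069516.8, chromosome 10, 117277331 to 117282321, minus strand, GRCm38). In replicate 1 it had 35688 expected counts and 1639.72 TPM, and in replicate 2 it had 33560 expected counts and 1364.81 TPM. Its mean of 1502 ± 194 TPM (SD, n = 2) was the ninth highest among protein-coding genes. The single annotated transcript, Lyz2-201 of 1316 bases, carried all of it, so intronic reads of Lyz2 enter no entry of these tables.

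Lyz1 encodes lysozyme P, the form known from Paneth cells of the small intestine, and lies 5475 bases from Lyz2 on the same strand with no annotated gene between them (ENSMUSG00000069515.6, chromosome 10, 117287797 to 117292868). It had 6 expected counts and 0.290 TPM in replicate 1, and 20 expected counts and 0.850 TPM in replicate 2. The exact Poisson 95% intervals of these counts, 2.20 to 13.1 and 12.2 to 30.9, overlap slightly. Of the counts of the lysozyme pair, the share of Lyz1 was 0.0168% for replicate 1, with a 95% Wilson interval of 0.00770 to 0.0367%. For replicate 2 it was 0.0596%, with an interval of 0.0386 to 0.0920%, which lies above that of replicate 1. In the second table, of kallisto layout, these shares were 0.0426% and 0.0773%. Their intervals there, 0.0279 to 0.0651% and 0.0538 to 0.111%, overlap, so the separation held in the first table only. Such intervals, like all those below, cover counting error only, since reads copied by PCR are not independent molecules.

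The pair is close enough in sequence for reads to be misassigned, so the first 150 coding bases of both transcripts are shown, with capitals at the 14 positions where they differ. The sequences come from the GENCODE transcripts.

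Lyz1-201: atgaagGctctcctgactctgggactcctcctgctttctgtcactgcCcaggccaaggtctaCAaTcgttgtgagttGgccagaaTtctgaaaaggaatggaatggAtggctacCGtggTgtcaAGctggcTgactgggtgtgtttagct
Lyz2-201: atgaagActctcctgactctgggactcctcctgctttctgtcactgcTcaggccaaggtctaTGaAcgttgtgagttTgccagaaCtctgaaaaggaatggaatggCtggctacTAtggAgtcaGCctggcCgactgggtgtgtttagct

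Over the whole coding sequence, 422 of 444 bases were identical (95.05%, no gaps). Of the 100-base windows of the Lyz1 transcript, 24 of 1164 occur unchanged in the Lyz2 transcript (2.06%), and of its 50-base windows 195 of 1214 do (16.1%). Most windows of either size thus hold a difference. With a paralog of this abundance and likeness, the Lyz1 values are uncertain, and how many of its counts came from Lyz2 reads was not tested.

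The paralogs are alike upstream too. The stretch from 150 to 51 bases before the RefSeq start site is shown for each, with capitals at the 21 of 100 positions that differ. It is read on the minus strand of GRCm38.p6, at chr10:117292919-117293018 for Lyz1 and at chr10:117282323-117282422 for Lyz2. The other 79 positions are the same. The comparison was made position by position without gaps, so a base gained or lost also shows as differences. The bases between this stretch and the start site, not shown, are identical in both genes. The mean levels of the genes were 0.570 TPM for Lyz1 and 1502 TPM for Lyz2.

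Lyz1 upstream: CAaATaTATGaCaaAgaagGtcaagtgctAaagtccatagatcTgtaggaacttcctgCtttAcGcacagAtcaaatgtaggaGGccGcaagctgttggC
Lyz2 upstream: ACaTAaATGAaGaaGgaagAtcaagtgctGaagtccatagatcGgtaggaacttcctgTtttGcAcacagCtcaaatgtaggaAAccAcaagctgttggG

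Saa3 encodes serum amyloid A3, the acute-phase amyloid protein that is made in macrophages and fat as well as liver (ENSMUSG00000040026.8, chromosome 7, 46711998 to 46715700, minus strand). It had 5986 expected counts and 789.76 TPM in replicate 1, and 13906 expected counts and 1566.61 TPM in replicate 2. Replicate 2 was the higher by 1.98-fold in TPM and 2.32-fold in counts. Its mean of 1178 ± 549 TPM (SD, n = 2) lay below that of Lyz2 by less than its SD. The order of these 2 genes differed between the libraries: Lyz2 was the higher in replicate 1 and Saa3 in replicate 2.

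The other serum amyloid A genes of the same cluster were close to 0. Saa1 had 0 and 3 expected counts in replicates 1 and 2, Saa2 had 2 and 4, and Saa4 had 0 in both. The kallisto-layout table, however, gave Saa4 2.25 TPM in replicate 1 and 0.206 TPM in replicate 2. Saa4 lies 12.3 kb from Saa3, Saa1 24.8 kb and Saa2 36.1 kb. The coding sequence of Saa3 was 76.4% identical to that of Saa1 and 75.4% to that of Saa2. None of its 456 windows of 100 bases occurs in either paralog, and of its 506 windows of 50 bases 9 occur in Saa1 and 0 in Saa2.

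**Figure D2:**
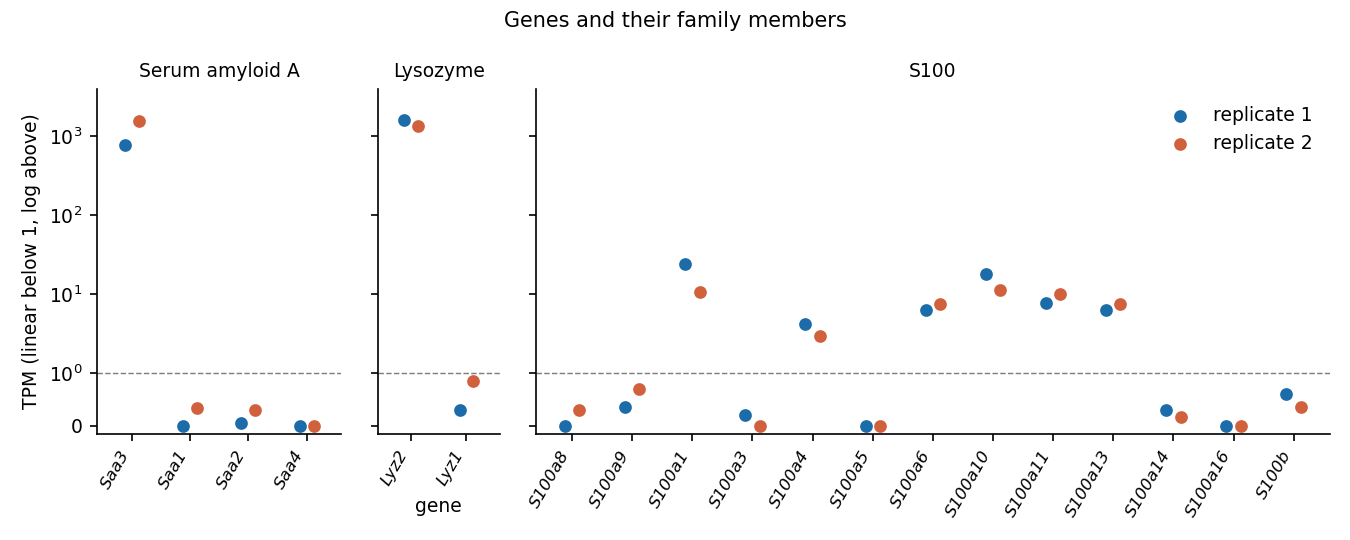
TPM in both replicates (linear below 1, logarithmic above) of Saa3, Lyz2, Lyz1, S100a8 and S100a9 beside the other listed members of their gene families, with a dashed line at 1 TPM. Saa3 and Lyz2 stand at 789.76 TPM or higher while Saa1, Saa2, Saa4 and Lyz1 are below 1 TPM, and in the S100 panel S100a8 and S100a9 are below 1 TPM while S100a1 reaches 24.01 TPM.

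Saa3 counts fell on the spliced mRNA and on an entry that is mostly intron. Saa3-201, the 555-base coding transcript with 4 exons, held 5098 and 12280 expected counts in replicates 1 and 2, or 97.1% and 97.6% of the TPM of the gene. Saa3-202, an annotated coding transcript of 2200 bases, held 888 and 1626 counts. Of its bases 2051, or 93.2%, lie inside the second intron of Saa3-201, which is 2282 bases long. It was singled out after its values were seen. Saa3-202 thus carried 14.8% of the Saa3 counts of replicate 1, with a 95% Wilson interval of 13.96 to 15.76%. It carried 11.7% of those of replicate 2, with an interval of 11.17 to 12.24%, and the intervals do not overlap. In the kallisto-layout table the shares were 17.8% and 12.7%, again the higher in replicate 1. Whether these reads come from unspliced Saa3 RNA or from a separate transcript was not tested.

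Lcn2 encodes lipocalin 2, which binds bacterial siderophores and so withholds iron (ENSMUSG00000026822.14, chromosome 2, 32384633 to 32388252, minus strand). It had 39 expected counts and 2.99 TPM in replicate 1, and 169 expected counts and 11.33 TPM in replicate 2. The Poisson 95% intervals of the counts, 27.7 to 53.3 and 144 to 196, do not overlap, so the gap exceeded counting error. With 1 library on each side it has no replicate check. The mean of 7.16 ± 5.90 TPM (SD, n = 2) exceeded that of 71.4% of protein-coding genes.

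Part of the Lcn2 counts fell on its 3 annotated intron-retaining transcripts. They held 10.1 of 39 counts in replicate 1, which is 25.9%, with a 95% Wilson interval of 14.6 to 41.1%. They held 57.8 of 169 in replicate 2, which is 34.2%, with an interval of 27.6 to 41.8%. These intervals overlap. Across the 6848 protein-coding genes with an annotated intron-retaining transcript and at least 10 counts in both libraries, the median share was 14.4% in replicate 1 and 14.9% in replicate 2, and 66.4% and 75.9% of them had a lower share than Lcn2. With the counts of those genes pooled, the share was 20.13% in replicate 1 and 19.45% in replicate 2. The interval of Lcn2 held the pooled share in replicate 1 and lay above it in replicate 2. Most of the Lcn2 share was Lcn2-202, with 7.15 and 44.7 counts. Of its 789 bases 472 lie in the second intron, which is 986 bases long. Lcn2-202 thus holds no intron of Lcn2-201 whole, though it is annotated as intron-retaining. The coding transcript Lcn2-201 held 70.1% and 59.0% of the TPM of the gene.

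**Figure D3:**
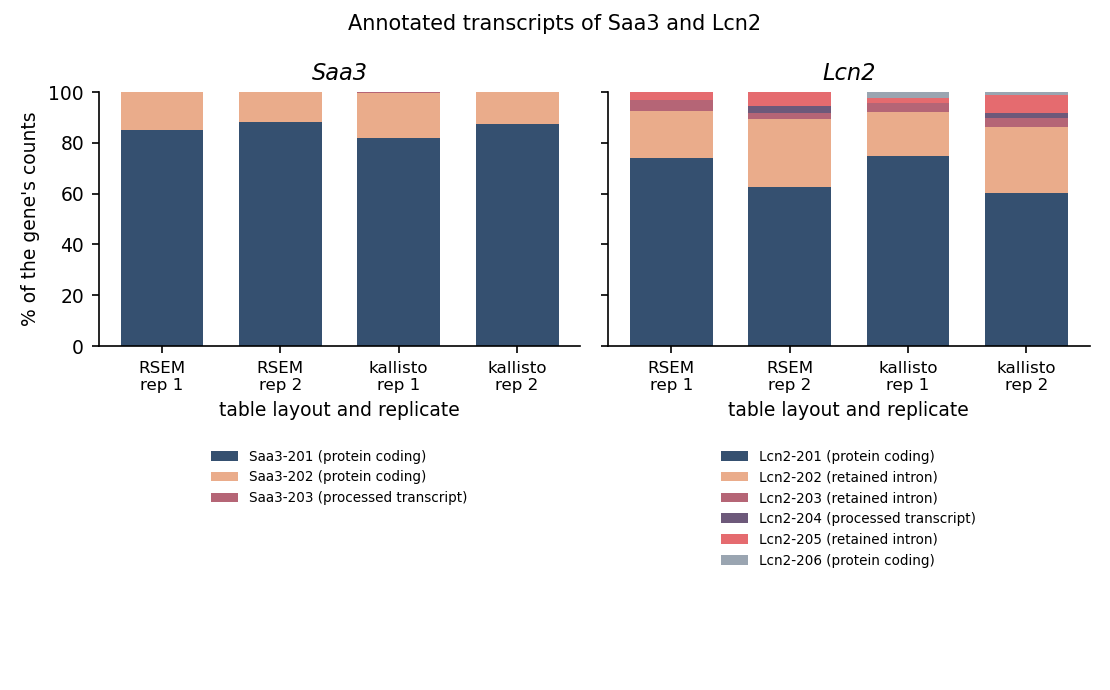
Percent of the counts of Saa3 (left) and Lcn2 (right) on each annotated transcript, for both table layouts and both replicates, with stacked bars that add to 100%. Saa3-201 holds 85.2% and 88.3% of Saa3 counts and Lcn2-201 holds 74.1% and 62.8% of Lcn2 counts in the RSEM-layout tables, and the same transcripts lead in the kallisto-layout bars.

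Hp encodes haptoglobin, which binds free haemoglobin (ENSMUSG00000031722.10, chromosome 8, 109575128 to 109579172, minus strand). It had 19 counts and 0.910 TPM in replicate 1, and 26 counts and 1.03 TPM in replicate 2, so it straddled the 1 TPM line, and its Poisson intervals of 11.4 to 29.7 and 17.0 to 38.1 counts overlap. Slpi encodes the secretory leukocyte protease inhibitor, a brake on neutrophil elastase (ENSMUSG00000017002.14, chromosome 2, 164354070 to 164389095, minus strand). It had 8 counts and 0.770 TPM in replicate 1 and 5 counts and 0.330 TPM in replicate 2, and the intervals of 3.45 to 15.8 and 1.62 to 11.7 counts overlap. Slpi was the only gene of the 10, besides Lyz2, with fewer counts in replicate 2 than in replicate 1. On so few counts that difference was not detectable at this depth.

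Haptoglobin counts fell on the main coding transcript Hp-201, apart from 1.52 counts on Hp-203 in replicate 1. Slpi counts were divided in replicate 1 between Slpi-201 (6.63) and Slpi-202 (1.37), and all 5 of replicate 2 were on Slpi-201.

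The granule and calprotectin genes were at the limit of detection. Camp encodes cathelicidin, a precursor of a membrane-lysing peptide (ENSMUSG00000038357.10, chromosome 9, 109847379 to 109849617, minus strand), and had 0 expected counts in both libraries. As a one-sided 95% limit, a count of 0 allows up to 3 counts, a share of up to 1.49e-05% in replicate 1 and 1.53e-05% in replicate 2. The kallisto-layout table gave Camp 6 counts in replicate 1 and 8 in replicate 2, so the tables disagree on whether any read came from it.

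Ltf encodes lactotransferrin, an iron-binding protein of secondary granules (ENSMUSG00000032496.7, chromosome 9, 111019271 to 111042767, plus strand). It had 3 counts and 0.420 TPM in replicate 1, and 9 counts and 0.690 TPM in replicate 2. Its posterior mean TPM in the same tables was higher, at 4.15 in replicate 1 and 3.21 in replicate 2, so its level depends on which estimate is read. The deposited intervals were wide, 1.40 to 7.57 and 1.39 to 5.32 TPM, and kallisto-layout TPM was 0.209 and 0.0955. With 3 and 9 counts over 12 annotated transcripts, the posterior mean is no firm sign of a level above 1 TPM. Why the estimates differ was not tested. By counts the 2743-base coding transcript Ltf-201 led, with 1.43 and 5.75, and by TPM the 373-base decay-targeted transcript Ltf-211, with 0.290 and 0.380 TPM from 0.870 and 1.57 counts. Ltf-204 held 0.700 and 1.69 counts. Ltf-207 held 2.10 counts in replicate 1 of the kallisto-layout table and none in the RSEM-layout tables. Ltf-211 thus made up 68.7% of the TPM of Ltf in replicate 1 and 55.5% in replicate 2, from fewer than 2 counts each.

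S100a8 and S100a9 encode the subunits of calprotectin, which chelates zinc and manganese, and lie 22.6 kb apart (chromosome 3, 90668978 to 90670035 and 90692632 to 90695721). S100a8 (ENSMUSG00000056054.9) had 0 counts in replicate 1 and 2 in replicate 2, 1 on S100a8-201 and 1 on the intron-retaining S100a8-202. S100a9 (ENSMUSG00000056071.12) had 2 counts and 0.350 TPM in replicate 1, and 5 counts and 0.700 TPM in replicate 2, all on S100a9-201. Other S100 genes were measurable in the same libraries: 6 of 11 listed ones reached 1 TPM in both, where 44.9% of protein-coding genes did. S100a1 had 24.01 and 10.62 TPM, S100a10 had 17.9 and 11.25 TPM and S100a11 had 7.67 and 10.2 TPM.

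By mean TPM the order was Lyz2, Saa3, Lcn2, Hp, Lyz1, Ltf, Slpi, S100a9, S100a8 and Camp. Lyz1, Ltf, Slpi and S100a9 ranged only from 0.525 to 0.570 TPM, less than the SD of each of them (0.191 to 0.396), so their order carries no information. On posterior mean TPM, Ltf came next after Lcn2, with a mean of 3.68 from only 3 and 9 expected counts.

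The low genes include products of neutrophil granules, and markers of neutrophils were low as well. Of 16 listed neutrophil markers 3 reached 1 TPM in both libraries, where 44.9% of protein-coding genes did. The 3 were Csf3r (87.3 ± 1.89 TPM), the G-CSF receptor, Padi4 (3.19 ± 2.21 TPM) and Mmp8 (1.595 ± 0.488 TPM). The list summed to 93.0 TPM in replicate 1 and 93.1 TPM in replicate 2, nearly all of it Csf3r. Ly6g, Cxcr2, Retnlg, Stfa2, Mpo, Elane and Ctsg had 0 expected counts in both libraries. In the kallisto-layout table Cxcr2 had 2.21 and 0.429 TPM, Mpo had 0.729 and 0.0692 TPM, and Ly6g, Retnlg, Stfa2, Elane and Ctsg had at most 0.101 TPM. The part of neutrophils in the low values of Camp, Ltf, S100a8 and S100a9 was not tested. All 10 listed macrophage markers reached 1 TPM, with sums of 6981 and 6576 TPM, led by Gpnmb (2071 ± 43.5 TPM), Ctsd (1883 ± 5.54 TPM) and Mpeg1 (1034 ± 115 TPM). Of 15 markers of other lineages 2 reached 1 TPM, the erythroid enzyme Alas2 (2.24 ± 1.01 TPM) and the endothelial and leukocyte adhesion molecule Pecam1 (1.75 ± 0.382 TPM), and the third, Siglech, had 0.235 ± 0.0636 TPM. Cd3e, Nkg7, Epcam, Krt8 and the hepatocyte gene Alb had 0 counts in both.

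Of 20 other acute-phase genes, 3 reached 1 TPM in both libraries, as Saa3 did, beside 44.9% of all protein-coding genes. These were C3, the central complement component (127 ± 26.6 TPM), Cp, the copper-carrying ferroxidase ceruloplasmin (77.3 ± 6.46 TPM), and Lbp, the lipopolysaccharide-binding protein (2.39 ± 1.40 TPM). Saa4, Apcs, Crp, Itih3, Serpina3n, Fga, Fgb, Fgg and Hamp had 0 expected counts in both libraries, and the list medians were 0 and 0.0150 TPM. The kallisto-layout table gave other genes: Orm2 (11.76 and 2.84 TPM) and Orm3 (7.09 and 1.89 TPM) reached 1 TPM in both libraries, whereas Lbp had 4.06 and 0.352 TPM and Crp 3.03 and 0.221 TPM. As described below, unscaled TPM of that table was lower in replicate 2 for most genes. Orm2 and Orm3, which encode orosomucoids, were named after their values were seen.

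Of 22 other antimicrobial genes 9 reached 1 TPM in both libraries, a share near the 44.9% of all protein-coding genes. The pore-forming protein Mpeg1 was again the highest, followed by Acod1, which makes itaconate (431 ± 15.8 TPM), and by Cybb of the phagocyte NADPH oxidase (238 ± 24.0 TPM). The granule genes Bpi, Mpo, Elane and Ctsg, the epithelial genes Wfdc2, Defb1, Reg3b and Reg3g, and Wfdc21 had 0 expected counts in both. In the kallisto-layout table Wfdc21 had 0.160 TPM in replicate 1 and 0 in replicate 2. The list median was 0.295 TPM in replicate 1 and 0.125 TPM in replicate 2.

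Of 12 receptors linked to these proteins, 8 reached 1 TPM in both libraries, where 44.9% of protein-coding genes did. Lrp1, an endocytic receptor (346 ± 58.2 TPM), the lipopolysaccharide co-receptor Cd14 (174 ± 92.4 TPM) and Tlr2 (65.1 ± 9.42 TPM) led the list. Lrp2, an endocytic receptor for lipocalin 2, had 0 expected counts in both libraries and 1.51 and 0.321 TPM in the kallisto-layout table. The list medians were 17.5 and 14.7 TPM.

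Of 15 listed cytokines, receptors and transcription factors that drive such genes, 12 reached 1 TPM in both libraries, where 44.9% of protein-coding genes did. The list medians were 18.8 and 19.0 TPM. Nfkbiz, a nuclear I-kB protein needed for Lcn2 expression (136 ± 33.9 TPM), Il1b (99.4 ± 59.3 TPM) and the myeloid factor Spi1 (57.9 ± 1.97 TPM) were the highest. Cebpe, the C/EBP factor of granulocyte maturation, had 0 counts in both.

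Because C/EBP factors are known regulators of several of these genes, the 250 bases before the RefSeq start site were searched on both strands. A start-site entry was matched by symbol for 9 of the 10 genes, Hp not among them. The C/EBP-type motif searched was TTGCNNAA, where N is any base. It occurred in 6 of 9, against 9.56% of all 32851 promoter windows of the same length. The windows around the matches are shown with the motif in capitals, each read on the strand of its gene in GRCm38.p6. They lie at chr7:46715757-46715786 for Saa3, chr2:32387937-32387966 for Lcn2, chr9:111019206-111019235 for Ltf, chr3:90695939-90695968 for S100a9, chr10:117293059-117293088 for Lyz1 and chr2:164356728-164356757 for Slpi. Ltf is on the plus strand and the others are on the minus strand.

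Saa3: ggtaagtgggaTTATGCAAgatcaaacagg
Lcn2: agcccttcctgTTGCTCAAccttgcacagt
Ltf: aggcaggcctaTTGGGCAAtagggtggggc
S100a9: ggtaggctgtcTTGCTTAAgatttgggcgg
Lyz1: gagcccaatctTTAAGCAAtttgaaataaa
Slpi: gaatttgtaTTGAGCAAtaggttagagttt

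The match began 99 bases before the start in Saa3 and 75 bases before it in Ltf, and between 209 and 241 bases before it in the other 4. Lyz2, with the highest mean level, and S100a8 and Camp, with the lowest, had no match. The NF-kB consensus was in 0 of 9 windows, against 7.25% of all promoter windows, and TATAAA in 1, that of S100a8, against 12.4%. With only 9 windows, both counts are near these shares and tell nothing particular about the genes. All motif matches are matches of letters in a short window, and binding was not measured.

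Between the replicates, 4 of the 10 genes could be compared, those with at least 10 expected counts in both libraries. Lcn2 was 3.79-fold higher in TPM in replicate 2, a log2 ratio of 1.92, and was the 1 of 4 at or past 2-fold, in a table where 2.48% of 14595 genes were 2-fold or more higher in replicate 2 and 8.93% were 2-fold or more lower. Saa3 was just under the line with a log2 ratio of 0.99, Hp had 0.18 and Lyz2 had -0.26. No gene of the 4 was 2-fold lower. The median of the 4 log2 ratios was 0.58, beside -0.28 over all 14595 genes. Of all genes tested 99.6% had a lower ratio than Lcn2 and 97.4% a lower ratio than Saa3. Starting amount and replicate cannot be told apart in this difference.

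CPM relates a gene's counts to the library total without regard to length. On TMM-normalised CPM, where the median gene lay at 0.00, Saa3 also passed 2-fold. Its log2 ratio was then 1.36 (287 and 736 CPM), beside 2.26 for Lcn2 (1.87 and 8.94), 0.60 for Hp and 0.05 for Lyz2, so the sign for Lyz2 turned. The calls over all genes shifted as well, from 362 higher and 1304 lower on TPM to 712 higher and 431 lower. The effective length of Saa3 in the TPM was 381 bases in replicate 1 and 408 bases in replicate 2.

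**Figure D4:**
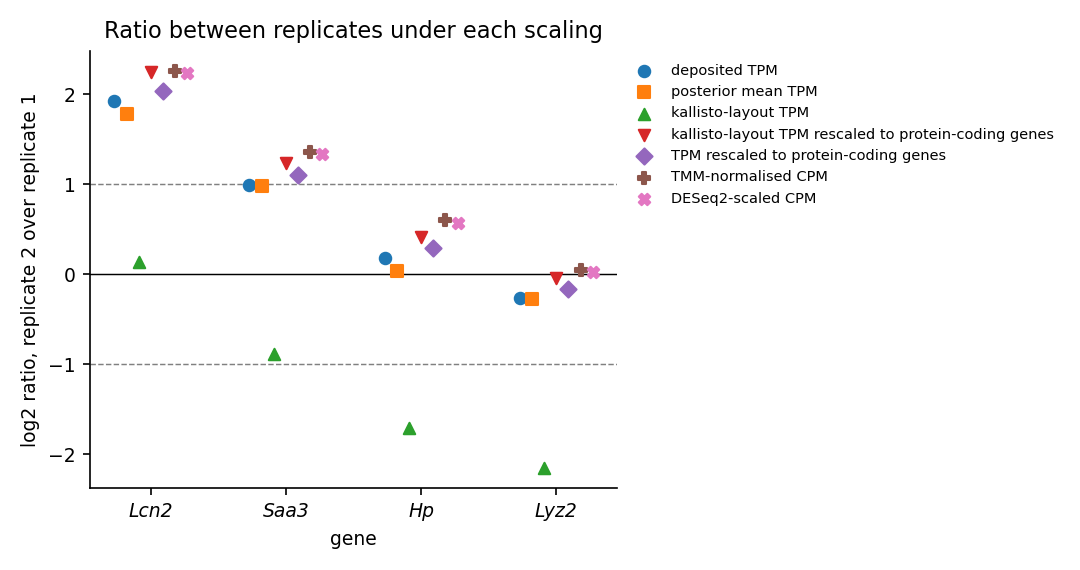
Log2 ratio of replicate 2 over replicate 1 for the 4 genes with at least 10 expected counts in both libraries, under 7 scalings (symbols), with dashed lines at 2-fold in each direction. Lcn2 is above 0 under all 7, Saa3 is above 0 under 6 and at -0.88 on unscaled kallisto-layout TPM, and Lyz2 lies between -2.15 and 0.05.

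The 2 deposited ways of counting gave close CPM for Lyz2, Saa3 and Lcn2, and relatively further apart values for some genes of few counts, such as Lyz1 with 0.297 against 0.612 CPM in replicate 1. Lyz2 had 1767 and 1713 CPM in the RSEM-layout tables and 1417 and 1339 in the kallisto-layout tables. Saa3 had 296 and 710 against 263 and 579, and Lcn2 had 1.93 and 8.63 against 1.70 and 7.68. As kallisto-layout TPM, however, Lyz2 had 873 in replicate 1 and 197 in replicate 2, and Saa3 had 424 and 230, which turns the direction for Saa3. By kallisto-layout TPM 98.2% of 14544 genes were 2-fold or more lower in replicate 2, with a median log2 ratio of -2.28. In those tables protein-coding genes held 22.8% of all TPM in replicate 1 and 5.27% in replicate 2, beside 29.5% and 27.3% in the RSEM-layout tables. After rescaling to protein-coding genes, the kallisto-layout log2 ratios were 1.24 for Saa3 and 2.25 for Lcn2.

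**Figure D5:**
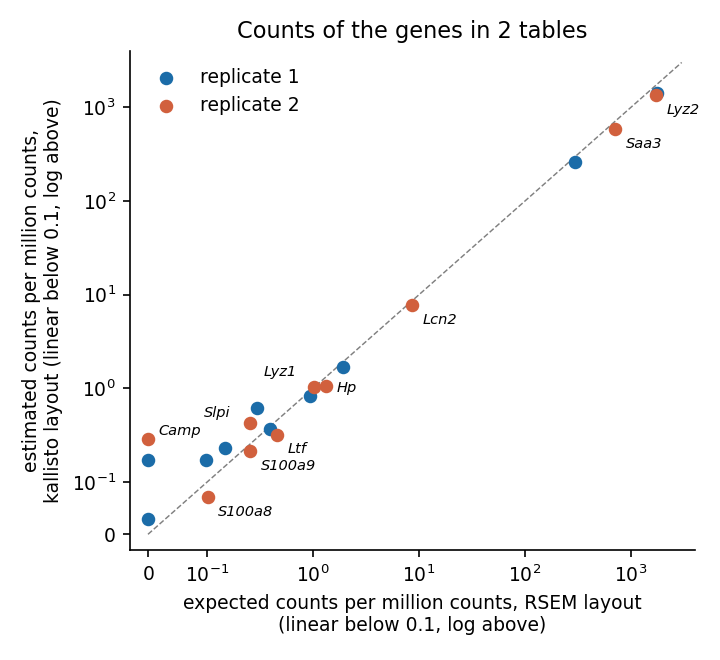
CPM of each gene in the RSEM-layout table (horizontal axis) and the kallisto-layout table (vertical axis), both linear below 0.1 and logarithmic above, for both replicates, with a dashed line of equality and names at the replicate 2 points. Lyz2, Saa3 and Lcn2 lie close to the line, and Camp is at 0 on the horizontal axis but at 0.173 and 0.286 on the vertical axis.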

How the data were processed

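Ribosomal-RNA-depleted nucleoplasmic RNA was sequenced from 2 libraries of 1 group. Per the deposited file notes, the expected counts and TPM per gene and transcript were made by the authors from mm10 transcriptome alignments with GENCODE M21. TPM, its posterior mean with an interval, and the percent of a gene's TPM in each transcript are deposited columns, per the file headers. A second deposited transcript table holds estimated counts and TPM made from the reads. Which programs and which strand setting were used is not given in the sources used here, and the tables are called RSEM-layout and kallisto-layout after their columns.

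Members were matched by symbol. Genes and gene lists were chosen with earlier results of these data known. All members are named, and of each list the 3 highest genes by mean TPM, close paralogs and markers at 0 counts. A listed marker of other lineages is not reported here by name. Identity of paralogs was taken from coding bases. Transcripts with at least 10% of a member's TPM are named. No test between conditions was possible, so no p-value was computed. Ratios between replicates used genes with at least 10 expected counts in both libraries. Counts were rounded for TMM (edgeR 4.0.16) and DESeq2 1.42.0 size factors in R 4.3.3. Python 3.11.15 with scipy 1.17.1 gave exact Poisson and Wilson intervals. The fold calls and the TMM step were tested on simulated data. Apart from Mir7678, which had 0 counts and lies inside Slpi, no annotated gene overlaps a member. CPM is a gene's counts per 1e6 counts of the table. Promoter sequences are from RefSeq (GRCm38.p6) and coding sequences from GENCODE.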

Additional observations from a re-analysis of the deposited data

How the results depend on the processing

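Level and count statements were recomputed under other settings. Leaving out each replicate gave 790 to 1567 TPM for Saa3, 1365 to 1640 for Lyz2, 2.99 to 11.3 for Lcn2, 0.91 to 1.03 for Hp, 0.29 to 0.85 for Lyz1, 0.42 to 0.69 for Ltf, 0.33 to 0.77 for Slpi, 0.35 to 0.70 for S100a9 and 0 to 0.30 for S100a8, and 3 to 4 members at 1 TPM. Mean kallisto-layout TPM was 327 for Saa3, 535 for Lyz2, 0.328 for Hp, 0.152 for Ltf, 0.237 for S100a9 and 0.146 for Camp. Mean posterior TPM was 3.68 for Ltf, 1.18 for Hp, 0.91 for Slpi, 0.79 for S100a9, 0.46 for S100a8 and 0.0850 for Camp, which placed 5 members at 1 TPM in both libraries. Members 2-fold or more higher in replicate 2 numbered 2 on TPM rescaled to protein-coding genes, on rescaled kallisto-layout TPM, on TMM-normalised and on DESeq2-scaled CPM, 0 on unscaled kallisto-layout TPM, 0 with at least 100 counts in both libraries (which leaves out Lcn2) and 3 with no count filter. Over all genes tested, 3.28%, 2.32%, 4.88% and 4.58% were 2-fold or more higher under the scalings with 2 members, in the order given. On unscaled kallisto-layout TPM 0.0825% were. Members 2-fold or more lower numbered 2 on unscaled kallisto-layout TPM and 1 with no count filter. On unscaled kallisto-layout TPM 14281 of 14544 genes (98.2%) were 2-fold or more lower, with a median log2 ratio of -2.28. The log2 ratio changed sign for Saa3 (-0.88) and Hp (-1.71) on unscaled kallisto-layout TPM and for Lyz2 on TMM-normalised (0.05) and DESeq2-scaled CPM (0.03). In the kallisto-layout table Saa3-201 held 96.6% of Saa3 TPM. With that table, an alternative chosen after seeing the data, 1 neutrophil marker and 1 marker of other lineages reached 1 TPM in both libraries. Padi4, Mmp8 and Pecam1 reached it in replicate 1 only. Since unscaled TPM of that table was lower in replicate 2 for 98.2% of genes, the 1 TPM line is stricter there. For the other lists the count moved by less than 1.5 times, though not always over the same genes: of the acute-phase list, Lbp dropped out and Orm2 and Orm3 came in. The cause of these shifts was not tested. No paired analysis was possible because there is 1 group. Members with fewer than 10 counts are limited by depth.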
